A study of Homo sapiens with 4 samples.

Results

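The genes described here encode the machinery of transcription: subunits of RNA polymerases I, II and III, the general transcription factors, the TBP-associated factors (TAFs), Mediator, Integrator, and the factors that hold or release a paused polymerase. They were chosen by gene symbol (POLR1, POLR2 and POLR3 subunits, MED, INTS, TAF, GTF2, GTF3, TBP, SUPT, NELF and ELL genes, with CDK7, CDK8, CDK9, CCNH, CCNT, HEXIM1 and LARP7), with no use of measured values. The symbols matched 143 of the 14911 genes with a count in any library. Of these 143 genes, 71 reached a mean of 50 counts per library and are the ones for which ratios are given, against 5320 genes in the whole data set. The other 72 are accounted for by their counts, and a mean of 10 counts was reached by 109 of the 143.

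The samples were HEK293T cells, a line derived from human embryonic kidney and holding the SV40 large T antigen. All of them were exposed to X-rays, for which the methods give a dose of 10 Gy. One population expressed a control shRNA (shCTL) and the other an shRNA against ALKBH5 (shA5), an enzyme that removes m6A from RNA, and the ALKBH5 shRNAs were delivered with the lentiviral vector pLKO.1. Which harvest time and which of the ALKBH5 shRNAs these libraries come from is not given in the sources used here. From poly(A) RNA of each population an input library and a library of fragments bound by an m6A antibody (m6A-IP) were sequenced, which gave 1 library in each of 4 groups. No difference between the populations therefore has a replicate check, and no p-value is given. The comparison asks whether m6A and RNA abundance of these genes differed in irradiated cells when ALKBH5 was depleted.

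The libraries held 1311390 to 3944402 counts, of which the 143 genes took 1.32 to 1.42%. For ALKBH5 itself the inputs held 486 counts (shCTL) and 145 counts (shA5), a log2 change of -0.97 (95% counting interval -1.25 to -0.70) in the direction of the label. A list of markers of the line (VIM, KRT8, KRT18, PAX2, LHX1 and NEFM) summed to 53.4 to 103 CPM (counts scaled to a common library total) per library. Of these 6 genes, 5 had counts in all 4 libraries, and PAX2 had 1 count in all. PTPRC, CD3E and ALB, markers of leukocytes, T cells and hepatocytes, were at 0 in all 4 libraries, and the list of other cell types summed to 79.1 to 185 CPM. Nearly all of that sum was COL1A1, a collagen gene, with 401 counts in input and 578 in m6A-IP of shCTL, and 150 and 246 in those of shA5. VIM, the vimentin gene, had 2 to 8 counts per library. Whether cells of another type have a part in the results was not tested.

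RNA polymerase I transcribes the large ribosomal RNA precursor, RNA polymerase II transcribes mRNAs and many small nuclear RNAs, and RNA polymerase III transcribes tRNAs and other short RNAs. At RNA polymerase II promoters the general factors place the enzyme at the start site and Mediator relays signals from bound activators. Soon after initiation the enzyme pauses under the negative elongation factor NELF and the DSIF complex, and is released by P-TEFb, the kinase CDK9 with a cyclin T, which in turn is held inactive by HEXIM1, LARP7 and the 7SK RNA. Integrator cleaves nascent transcripts near their start and forms the ends of small nuclear RNAs. m6A is placed on adenosines in a short consensus, of which GGAC is a frequent form, often in long exons and near stop codons.

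To show the sequence that the m6A antibody assay bears on, the GGAC nearest the stop codon of the counted transcript is given for 6 genes with at least 1.5-fold more CPM in the m6A-IP than in the input in both populations and for 4 of the genes with the lowest ratios. Capitals mark the GGAC, each window has 10 bases on either side and runs 5′ to 3′ on the transcript's strand, and positions are on hg38 with Gencode v44 annotation. The counts are sums over whole transcripts, so no value belongs to a single site, and the motif was searched as GGAC on the transcript strand only.
HEXIM1 (3′ UTR, chr17:45150292-45150315, plus strand): ggggcaaaggGGACtttttacagt
INTS11 (coding sequence, chr1:1318997-1319020, minus strand): ggccagagtgGGACaggctggtgc
MED11 (3′ UTR, chr17:4733189-4733212, plus strand): ccagggagatGGACccagagctga
MED25 (coding sequence, chr19:49838797-49838820, plus strand): actgaaaaagGGACtcaaatgtca
INTS5 (coding sequence, chr11:62647014-62647037, minus strand): cttcgacaggGGACgtagcctttt
CDK9 (3′ UTR, chr9:127789678-127789701, plus strand): cccgctgagtGGACtggagtggag
GTF3C3 (3′ UTR, chr2:196764507-196764530, minus strand): tgctgtgtgaGGACcagtgtcttc
POLR3K (coding sequence, chr16:47437-47460, minus strand): tgctcagtgtGGACaccgctggag
MED14 (3′ UTR, chrX:40651708-40651731, minus strand): aaaaggaaaaGGACttttttttta
GTF2B (coding sequence, chr1:88853221-88853244, minus strand): acaccccagtGGACaaactaccac
In these 10 transcripts the motif lay at most 153 bases from the stop codon, in genes of both kinds. The nearest GGAC was chosen for each, so closeness to the stop codon follows from the choice. All 71 genes held at least 1 GGAC in their counted transcripts, as did 99.6% of the 5307 genes of the whole set with an annotated transcript, so the presence of the motif does not separate them.

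Enrichment in the m6A-IP is given as log2 of m6A-IP CPM over input CPM, with 0.5 CPM added to both, so that 0 means the same share of both libraries. Its exact 95% intervals come from the counts and cover nothing but counting error, as reads without molecular identifiers are not independent molecules. Over the 71 genes the median enrichment was -0.15 in shCTL and -0.20 in shA5, beside -0.11 and -0.10 over all 5320 genes. The genes spread widely around that median, with a standard deviation across genes of 0.78 in shCTL and 0.92 in shA5. At least 1.5-fold enrichment was reached by 13 of the 71 genes in shCTL, against 22.5% of all genes, and by 14 in shA5, against 24.3%. A ratio at or below the reciprocal of 1.5 was found for 24 genes in shCTL, against 30.3% of all genes, and for 31 in shA5, against 31.7%. As shares of the 71 genes these were 18.3 and 19.7% for high ratios and 33.8 and 43.7% for low ratios. In both populations 11 genes were at or above 1.5-fold (15.5%, against 18.7% of all genes) and 23 were at or below its reciprocal (32.4%, against 26.3%). The shares of high ratios lay slightly below those of all genes, and the shares of low ratios lay above them. After removal of a trend on GC content 18 genes were low in shCTL (25.4%, against 29.5% of all genes) and 26 in shA5 (36.6%, against 30.1%), so that in shCTL the share of low ratios fell below that of all genes. It also did so at a 2-fold threshold, with 10 low genes in shCTL (14.1%, against 16.9%). With the GC trend removed 15 genes were high in each population (21.1%, against 21.0% of all genes in shCTL and 22.5% in shA5). The share of high ratios in shCTL was then no longer below that of all genes.

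**Figure D1:**
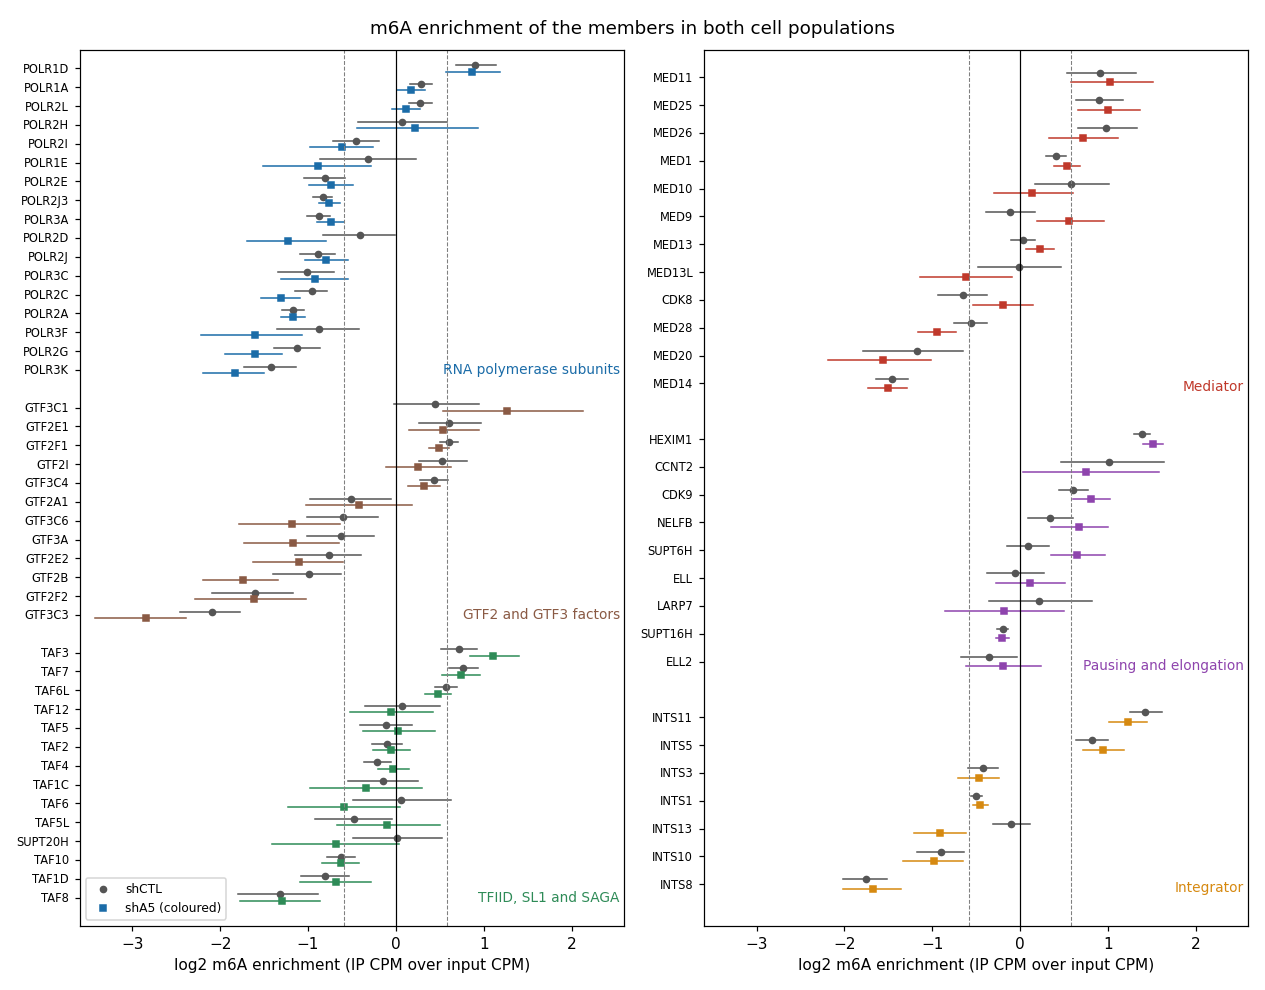
Log2 m6A enrichment (m6A-IP CPM over input CPM) of the 71 genes with enough counts, by complex, in shCTL (grey circles) and shA5 (coloured squares), with bars for exact 95% counting intervals and dashed lines at 1.5-fold. Subunits of RNA polymerases II and III lie mostly to the left of 0, pausing and elongation factors mostly at or to the right of it, and both values of a gene lie close together for most genes.

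The subunits of the RNA polymerases were mostly low in the m6A-IP. Of 30 such genes 17 had enough counts, and their median enrichment was -0.83 in shCTL and -0.79 in shA5. At or below the reciprocal of 1.5-fold were 10 of them in shCTL and 13 in shA5 (30.3 and 31.7% of all genes). Gene by gene the median change was -0.11, with 11 of the 17 below 0, beside 2636 of the 5320 genes of the whole set. In each population 13 of the 17 lay below 0, where 2900 of the 5320 genes of the whole set lay below 0 in shCTL and 2855 in shA5. Among the subunits particular to RNA polymerase II all 7 measured genes were below 0 in both populations. Over the mean of both populations the highest of them was POLR2I, a small subunit, with enrichment of -0.45 in shCTL and -0.62 in shA5. On the same mean the lowest was POLR2G, which pairs with POLR2D in the stalk, with -1.12 in shCTL and -1.61 in shA5.

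POLR2A encodes the largest subunit, whose C-terminal repeats are phosphorylated during the transcription cycle. It had 1212 counts (542 CPM) in input and 949 (241 CPM) in m6A-IP of shCTL, and 811 (618 CPM) and 864 (274 CPM) in those of shA5. Both m6A-IP libraries lay below both inputs, with enrichment of -1.17 in both populations. All counts of POLR2A were on ENST00000572844, a transcript of 2083 nucleotides that Gencode v44 classes as a retained intron with no coding sequence, so the value describes that stretch and not the full mRNA. POLR2J3 and POLR2J, related copies of one subunit gene, were at -0.83 and -0.88 in shCTL and at -0.76 and -0.79 in shA5. Of their 50-base stretches, 29.0% in POLR2J3 and 33.3% in POLR2J also occur in other genes, so counts may be split between the copies and both values are uncertain.

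The subunits particular to RNA polymerase III were low as well. The 4 measured ones lay between -1.42 and -0.87 in shCTL and between -1.83 and -0.74 in shA5, all at or below the reciprocal of 1.5-fold, as were 30.3 and 31.7% of all genes. POLR3A, the largest subunit of that enzyme, was the highest over both populations, with enrichment of -0.88 in shCTL and -0.74 in shA5. POLR3K, a small subunit that takes part in termination, was the lowest, with 246 counts in input and 161 in m6A-IP of shCTL, and 174 and 116 in those of shA5. Its enrichment was -1.42 (interval -1.73 to -1.14) in shCTL and -1.83 (-2.20 to -1.50) in shA5.

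Of the polymerase subunits, 4 lay above 0 in both populations, and none of them is particular to RNA polymerase II or III. POLR1D, shared by RNA polymerases I and III, was at 0.91 in shCTL and 0.87 in shA5, the only subunit past 1.5-fold. POLR1A, the largest subunit of RNA polymerase I, was at 0.29 and 0.17. Of the subunits common to all 3 enzymes, POLR2L was at 0.28 and 0.12, POLR2H at 0.07 and 0.22, and POLR2E, below 0, at -0.81 and -0.74. The other measured RNA polymerase I subunit, POLR1E, was at -0.31 in shCTL and -0.88 in shA5.

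The GTF2 and GTF3 factors, which assemble with RNA polymerases II and III at promoters, held the lowest ratio of the 71 genes. Of 24 such genes 12 were measured, with a median of -0.55 in shCTL and -0.76 in shA5, and 6 of the 12 were at or below the reciprocal of 1.5-fold in each population (30.3 and 31.7% of all genes). GTF3C3, a subunit of the tRNA gene factor TFIIIC, had 253 counts (113 CPM) in input and 103 (26.1 CPM) in m6A-IP of shCTL, and 133 (101 CPM) and 43 (13.7 CPM) in those of shA5. Its m6A-IP levels were far below both inputs, with enrichment of -2.09 (interval -2.46 to -1.78) in shCTL and -2.85 (-3.42 to -2.39) in shA5. Another TFIIIC subunit, GTF3C1, was at 0.45 in shCTL and at 1.26 in shA5, the highest value of the 12 there, although on only 17 counts in the shA5 input.

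Among the RNA polymerase II factors the members of a complex differed from each other. TFIIF has a large subunit, GTF2F1, with 0.61 in shCTL and 0.49 in shA5, and a small one, GTF2F2, with -1.60 and -1.61. TFIIE likewise had GTF2E1 at 0.61 and 0.54 and GTF2E2 at -0.76 and -1.10. In both complexes the intervals of the partners did not overlap in either population. GTF2I, a factor of the TFII-I family, was at 0.53 and 0.25, but 67.8% of its 50-base stretches occur in other genes, so its counts are uncertain. None of the 7 TFIIH genes, which encode the helicase and kinase complex that opens the promoter, had enough counts.

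The TAFs of TFIID, with those of the RNA polymerase I factor SL1 and the coactivator SAGA, were centred near 0, with a median of -0.11 in shCTL and -0.08 in shA5 over 14 of 26 genes. Of the 9 measured TFIID genes the highest over both populations was TAF3, which reads trimethylated histone H3 at promoters. TAF3 had 266 counts in input and 770 in m6A-IP of shCTL, and 130 and 676 in those of shA5, with enrichment of 0.71 in shCTL and 1.11 in shA5. TAF7 was close to it, at 0.77 and 0.74. The lowest was TAF8, at -1.32 (interval -1.80 to -0.89) and -1.30 (-1.77 to -0.86). In SAGA the highest was TAF6L, at 0.57 and 0.48, with SUPT20H at 0.01 and -0.68 the lowest on the mean of both populations and TAF5L, at -0.47 and -0.10, the lowest in shCTL. Both measured SL1 genes were below 0, TAF1C at -0.15 and -0.34 and TAF1D at -0.81 and -0.68.

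Mediator spanned a wide range, with a median of 0.01 in shCTL and 0.18 in shA5 over 12 of 30 genes. Enrichment of at least 1.5-fold in both populations was seen for a gene of the head (MED11), of the middle (MED26, which links Mediator to elongation factors) and of the tail (MED25, an activator contact). Of all genes 18.7% were that high in both. At or below the reciprocal were 3 Mediator genes in shCTL and 4 in shA5 (30.3 and 31.7% of all genes). MED11 was at 0.91 and 1.02, MED26 at 0.98 and 0.71 and MED25 at 0.90 and 0.995. For MED26, 43.3% of 50-base stretches also lie in overlapping annotated genes. The lowest in shCTL was MED14, the backbone that joins the modules, with 653 counts (292 CPM) in input and 419 (106 CPM) in m6A-IP of shCTL, and 371 (283 CPM) and 313 (99.4 CPM) in those of shA5. Its enrichment was -1.45 and -1.50, and MED20 of the head, at -1.18 and -1.57, was the lowest in shA5. In the kinase module MED13 was the highest, at 0.03 and 0.23. The kinase CDK8, at -0.65 and -0.20, was the lowest in shCTL, and MED13L, at -0.01 and -0.61, the lowest in shA5.

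Of the 9 pausing and elongation factors measured, none was at or below the reciprocal of 1.5-fold in either population, where 30.3% of all genes were in shCTL and 31.7% in shA5. Their median was 0.21 in shCTL and 0.65 in shA5, over 9 of 16 genes, but these medians fall on different genes. Gene by gene the median change was 0.16, and 0 of the 9 gained 1.5-fold (5.38% of all genes). A cyclin T gene just under the count minimum, CCNT1, was low, at -0.64 (interval -1.23 to -0.07) in shCTL and -1.07 (-1.82 to -0.38) in shA5 on 33 to 56 counts per library. HEXIM1, the inhibitor of P-TEFb, had 1149 counts (513 CPM) in input and 5295 (1342 CPM) in m6A-IP of shCTL, and 677 (516 CPM) and 4636 (1473 CPM) in those of shA5. Both m6A-IP values were far above both inputs, with enrichment of 1.39 (interval 1.29 to 1.48) in shCTL and 1.51 (1.40 to 1.63) in shA5. HEXIM1 is a gene with a single exon of 3625 nucleotides, with 21 GGAC motifs.

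The 2 components of P-TEFb with enough counts were above 1.5-fold in both populations as well, as were 18.7% of all genes, while CCNT1 was low. CCNT2, a cyclin T, was at 1.01 and 0.75 on input counts of 33 and 19, and the kinase CDK9 was at 0.60 and 0.81. LARP7, which stabilises the 7SK RNA, was at 0.21 and -0.19 and was the lowest of this group of 4. Of the remaining factors, NELFB was at 0.34 and 0.67, the elongation factor and histone chaperone SUPT6H at 0.09 and 0.65, ELL at -0.06 and 0.11, and ELL2 at -0.35 and -0.19. SUPT16H, a subunit of the histone chaperone FACT and the gene with the most shCTL input counts after INTS1, was at -0.20 in both populations.

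Integrator held high and low ratios side by side within 7 of 15 genes, around a median of -0.42 in shCTL and -0.47 in shA5. INTS11, the endonuclease of the complex, had 290 counts (130 CPM) in input and 1378 (349 CPM) in m6A-IP of shCTL, and 213 (162 CPM) and 1196 (380 CPM) in those of shA5. Its enrichment was 1.43 (interval 1.25 to 1.62) and 1.22 (1.01 to 1.44). Of its counts 92.7% were on ENST00000429572, a transcript of 1104 nucleotides out of 49 annotated for the gene, and another annotated gene overlaps it on the same strand. INTS5 was also above 1.5-fold, at 0.82 and 0.95. At the other end INTS8 was at -1.75 (interval -2.01 to -1.51) and -1.67 (-2.02 to -1.36), and INTS10 was at -0.90 and -0.98. INTS1, the large scaffold subunit with the most counts of the 71 genes in the shCTL input (3901), was at -0.50 and -0.45.

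The second comparison was the change of enrichment from shCTL to shA5, for which the median over the 71 genes was -0.04 beside 0.0036 over all genes. Each library was divided by its own total, so gains and losses here are relative to the other genes. A change of m6A common to all genes, such as the rise of m6A abundance the paper reports, would not be seen. A gain of at least 1.5-fold was found for 2 genes (2.82%, against 5.38% of all genes) and a loss of at least 1.5-fold for 9 (12.7%, against 5.09%). The 9 genes were GTF2B, GTF3C3, GTF3C6, INTS13, MED13L, POLR2D, POLR3F, SUPT20H and TAF6. With counting intervals in place of a fold, 4 genes lay above 0 (5.63%, against 8.18%) and 8 below (11.3%, against 8.06%). Losses outnumbered gains among these 71 genes on either rule, but this order depends on the minimum count. At a minimum mean of 10 counts (109 genes) 11 genes had a loss of at least 1.5-fold (10.1%, against 13.0% of all genes) and 15 a gain (13.8%, against 12.6%), and the median change was 0.05. Without a filter (143 genes) 22 had a loss (15.4%, against 21.4%) and 28 a gain (19.6%, against 22.7%), with a median of 0.06. At a minimum mean of 200 counts (35 genes) 1 gene, INTS13, had a loss (2.86%, against 1.08% of all genes) and 0 had a gain (against 1.65%).

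INTS13, an Integrator subunit, had 294 counts (131 CPM) and 178 counts (136 CPM) in the inputs of shCTL and shA5. Its m6A-IP counts were 483 (122 CPM) and 227 (72.1 CPM). The inputs were alike and the shA5 m6A-IP was low, so that enrichment was lower in shA5 by a log2 change of -0.81 (interval -1.17 to -0.45) at an input change of 0.05. GTF3C3, already the lowest gene in shCTL, was lower still in shA5, with a change of -0.75 (interval -1.41 to -0.16) at an input change of -0.16.

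In 2 further genes the change lay in the input and not in the m6A-IP. POLR2D, a stalk subunit of RNA polymerase II, had 91 counts (40.7 CPM) in input and 120 (30.4 CPM) in m6A-IP of shCTL, and 85 (64.8 CPM) and 86 (27.3 CPM) in those of shA5. GTF2B, or TFIIB, which bridges the promoter complex and the polymerase, had 122 (54.5 CPM), 107 (27.1 CPM), 116 (88.5 CPM) and 82 (26.0 CPM) in the same order. For both genes the shA5 input stood above the shCTL input while the m6A-IP levels were near each other. The change of enrichment was -0.82 (interval -1.44 to -0.21) for POLR2D and -0.75 (-1.34 to -0.18) for GTF2B, where the m6A-IP alone changed by -0.15 and -0.06. POLR3F of RNA polymerase III, on 47 to 82 counts per library, was at -0.73 with an interval of -1.50 to -6.2e-05. The change of enrichment and the change of input use the same input counts, so they are not independent measures.

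Among the gains, MED9 of the Mediator middle module was the only gene past 1.5-fold whose interval left out 0. MED9 had 174 counts (77.8 CPM) in input and 284 (72.0 CPM) in m6A-IP of shCTL, and 74 (56.4 CPM) and 263 (83.5 CPM) in those of shA5. Its change of enrichment was 0.67 (interval 0.20 to 1.16), made of an input change of -0.46 and an m6A-IP change of 0.21. GTF3C1 had a larger value, 0.81, but an interval of -0.08 to 1.81 and 17 counts in the shA5 input, and with its main transcript alone the value was 0.57, under 1.5-fold. SUPT6H gained 0.57 (interval 0.18 to 0.96), with 230 counts in input and 431 in m6A-IP of shCTL, and 111 and 420 in those of shA5. CDK8 and TAF3 followed with 0.45 (interval 0.02 to 0.90) and 0.40 (0.05 to 0.75).

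**Figure D2:**
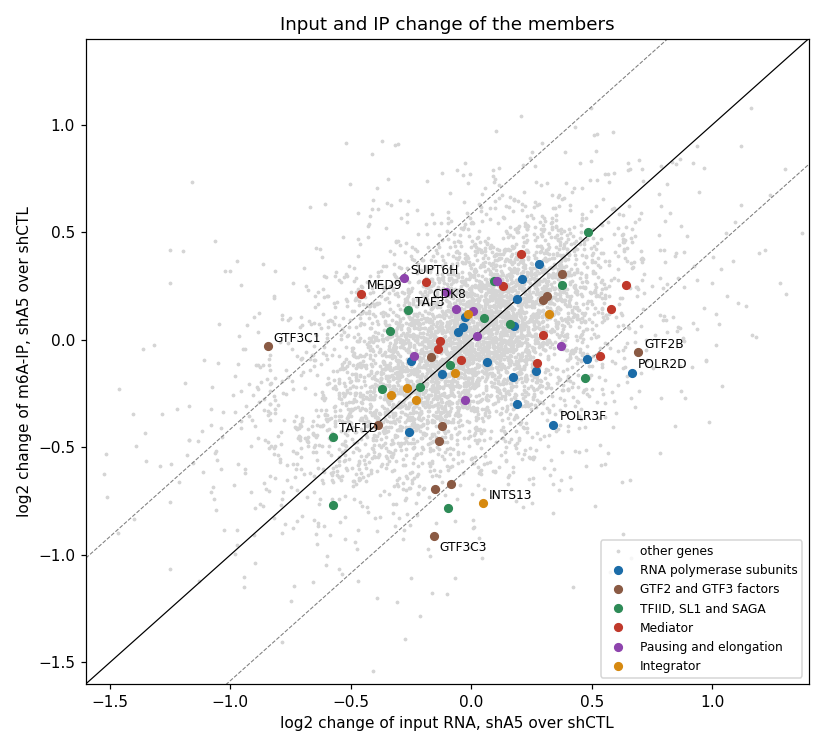
Log2 change of input RNA (horizontal axis) against log2 change of m6A-IP (vertical axis), both shA5 over shCTL, for the 71 genes coloured by group and for the other measured genes in grey. On the solid line enrichment is equal in both populations and the dashed lines mark a 1.5-fold change. INTS13 and GTF3C3 lie low at a nearly level input, POLR2D and GTF2B lie far to the right, and MED9 lies above the upper line, while grey points beyond the axes are not drawn.

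Input RNA of the 71 genes was close to level between the populations, with a median change of -0.02, beside -0.02 over all genes. A rise of at least 1.5-fold was found for 3 genes (4.23%, against 3.44% of all genes) and a drop of that size for 1 (1.41%, against 6.43%). This order also depends on the minimum count, with 5 rises (4.59%, against 9.32%) and 12 drops (11.0%, against 12.5%) at a mean of 10 counts, and 16 rises (11.2%, against 15.3%) and 23 drops (16.1%, against 19.9%) without a filter. By counting intervals 14 genes were above 0 (19.7%, against 12.9%) and 7 below (9.86%, against 15.6%). The polymerase subunits had a median of 0.18 with 11 of 17 above 0, and Mediator had a median of 0.17 with 7 of 12 above 0, beside 2527 of 5320 genes above 0 over all genes. Integrator was at -0.07, the TAF group at -0.09, the GTF group at -0.13 and the pausing and elongation factors at -0.02.

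The genes with a higher shA5 input were GTF2B at 0.69 (interval 0.32 to 1.08), POLR2D at 0.67 (0.23 to 1.12) and the Mediator head gene MED20 at 0.64 (0.11 to 1.19). MED20 had input counts of 63 (28.2 CPM) in shCTL and 58 (44.2 CPM) in shA5, and 31.7% of its 50-base stretches also lie in a gene that overlaps it on the same strand. MED10 and MED13L followed at 0.58 (interval 0.06 to 1.11) and 0.53 (-0.02 to 1.10). On the other side stood GTF3C1 at -0.84 (interval -1.75 to -0.06) on 53 and 17 counts.

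The input of the 2 measured SL1 genes was lower in shA5, by less than 1.5-fold, although TAF1C passed 1.5-fold, at -0.75, when only its main transcript was counted. TAF1D had 224 counts (100.1 CPM) in input and 225 (57.0 CPM) in m6A-IP of shCTL, and 88 (67.1 CPM) and 131 (41.6 CPM) in those of shA5, and so was lower in shA5 in both kinds of library. Its input change was -0.57 (interval -0.95 to -0.21) and its m6A-IP change -0.45. TAF1C had an input change of -0.58 (interval -1.20 to 0.0028) and an m6A-IP change of -0.77. The SL1 gene TAF1B had too few counts to be among the 71, with 69 and 39 in the inputs and an input change of -0.05. MED9 at -0.46 (interval -0.88 to -0.06) and GTF2F2 at -0.39 (-0.90 to 0.10) came next.

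The features of the counted transcripts were set beside enrichment as a description across genes, which are not independent replicates and share the libraries. Over the 71 genes Spearman's rho between GGAC motifs per kb and enrichment was 0.320 in shCTL and 0.348 in shA5, near the 0.321 and 0.337 over all genes. GC content gave 0.279 and 0.329, where all genes gave 0.356 and 0.383. Exons per kb of transcript gave -0.207 and -0.278, where all genes gave -0.286 and -0.298. The 11 genes past 1.5-fold in both populations had a median of 4.87 GGAC per kb and 3 exons, and the 23 low genes had 3.23 GGAC per kb and 8 exons. The same classes over all genes had 4.88 and 2.99 GGAC per kb. POLR2I went against this order, with the highest GGAC density of the 71 genes, 15.8 per kb, and enrichment below 0 in both populations.

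**Figure D3:**
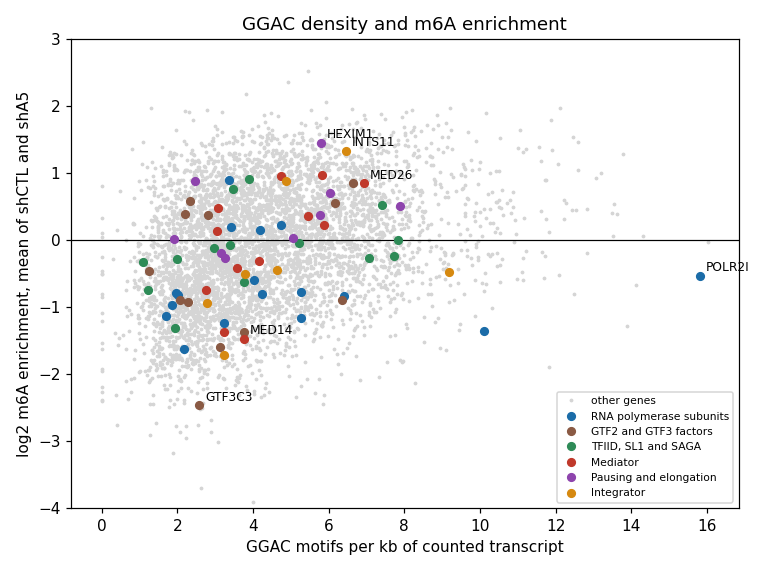
GGAC motifs per kb of counted transcript against the log2 m6A enrichment averaged over shCTL and shA5, for the 71 genes by group and for all other genes in grey. HEXIM1, INTS11 and MED26 lie above 0 at 5.79 to 6.94 motifs per kb, GTF3C3 at the lower left, and POLR2I far to the right below 0, with a wide scatter at every density.

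Of the 71 genes, 3 had more than 1 transcript that alone reached a mean of 50 counts. In POLR1D both transcripts were on the same side, ENST00000302979 at 0.80 in shCTL and 0.64 in shA5 and ENST00000637180 at 1.05 and 1.12. In INTS3 they were at -0.41 and -0.34 (ENST00000318967) and at -0.46 and -0.95 (ENST00000512605). In POLR2J they differed, with ENST00000292614 at -1.09 and -0.98 and ENST00000393794, which is not in Gencode v44, at 0.16 and -0.17.

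How many counts a gene received moved with how its transcripts overlap. Some core genes had almost no counts, although growing cells need their products. TBP, the TATA-binding protein, had 3 counts in input and 3 in m6A-IP of shCTL, and 1 and 5 in those of shA5, TAF1 had 1, 1, 1 and 2 in that order, and SUPT5H of DSIF had 4, 16, 4 and 12. POLR2B, the second largest subunit of RNA polymerase II, had 17, 12, 13 and 15, and MED12 had 10, 6, 2 and 5. Of 3 abundant housekeeping mRNAs in the shCTL input, GAPDH (6 annotated coding transcripts) had 78 counts, EEF1A1 (14 coding transcripts) 299 and ACTB (15 coding transcripts) 1299. These 3 genes cannot show how counts relate to the number of transcripts. For 52 of the 143 genes at least 50% of the counted bases lay outside the gene's other coding transcripts, and 38 of those (73.1%) had enough counts, with a median of 26.9 CPM per kb in the shCTL input. Of the 52 genes with 5 to 50% of such bases 19 (36.5%) had enough, and of the 39 genes with less than 5%, 14 (35.9%), with medians of 3.80 and 4.03 CPM per kb. Over all genes the shares were 51.6, 29.0 and 21.9%. A low count is not read here as a low expression level, and whether the rule for reads shared between transcripts has a part in the low counts was not tested. Of the 143 genes, 9 had no more than 3 counts in any library.

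**Figure D4:**
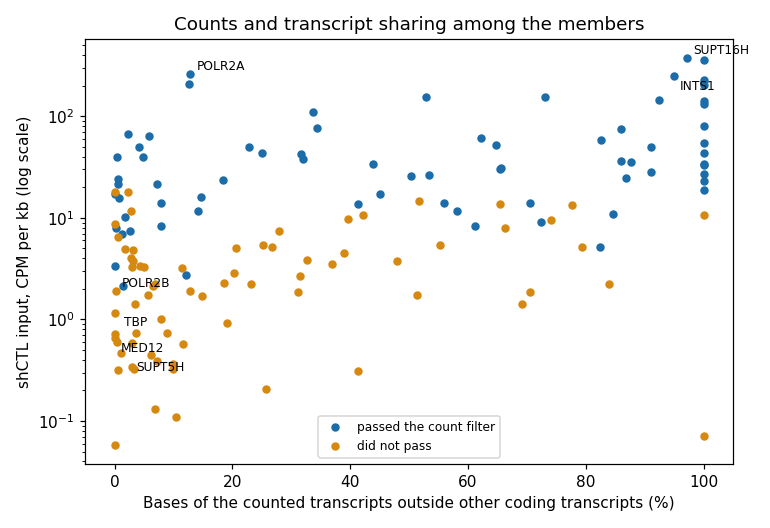
Share of the counted transcripts' bases outside the gene's other coding transcripts (horizontal axis, percent) against shCTL input CPM per kb (vertical axis, log scale) for the genes with a count, in blue where the mean reached 50 counts and in orange where it did not. TBP, MED12, SUPT5H and POLR2B lie at the lower left and INTS1 and SUPT16H at the upper right, and Spearman's rho was 0.447 over the 143 genes, beside 0.219 over all 14825 genes with an annotated transcript.

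Levels per length are therefore compared only among 12 genes whose counted transcript is not covered by another coding transcript of the gene and is wholly in Gencode v44, a condition that leaves out POLR2J. Shared sequence remains a limit for GTF3C6 and INTS5, of whose 50-base stretches 18.8 and 8.0% occur in other genes. Exons of genes on the opposite strand overlap POLR2I (3 genes) and POLR2L, HEXIM1, POLR2C, GTF3A and MED28 (1 gene each), and exons of a gene on the same strand overlap POLR2C and INTS5, with the counting's use of strand not known. POLR2L was the highest, with 361 CPM per kb in the shCTL input (95% Poisson interval 335 to 388) and 377 in the shA5 input (342 to 414). POLR2I, HEXIM1 and POLR2C followed in the shCTL input at 225, 142 and 131 CPM per kb, where the intervals of HEXIM1 (134 to 150) and POLR2C (120 to 142) overlapped. POLR3K was at 80.1, GTF3C6 at 54.4 and INTS5 at 43.5, and the intervals of INTS5 (38.9 to 48.6) overlapped those of GTF3C6 (44.1 to 66.5) and GTF3A (28.0 to 41.1). GTF3A at 34.1, NELFB at 32.9 and MED10 at 27.2 could not be ordered by their intervals. GTF2F2 at 22.9 (18.9 to 27.5) overlapped both MED10 above it (21.1 to 34.5) and MED28 below it at 18.7 (upper bound 20.5). In the shA5 input the values of some neighbours were reversed. POLR2C (147) was above HEXIM1 (142), MED10 (40.9) above GTF3A and NELFB (both 30.6), and MED28 (22.6) above GTF2F2 (17.5). The shA5 intervals overlapped in each of these pairs, so the reversals lie within counting error and a different order is not shown.

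Overlap with other genes limits some values further. Of the 71 counted transcripts 33 overlap an exon of another annotated gene, 30 of them on the opposite strand and 10 on the same strand, and whether the counting used strand is not given in the sources used here. No such overlap was found for 53.5% of the 71 genes, against 60.0% of the 5307 genes of the whole set with an annotated transcript. In 12 of the 71 genes more than 5% of 50-base stretches occur in other genes, from 67.8% in GTF2I to 7.24% in POLR2D. With the 38 genes whose counted bases lay at least 50% outside other coding transcripts of the gene, 4 were at or above 1.5-fold enrichment in each population (10.5%), beside 25.6 and 27.2% of all such genes, and 15 (39.5%, against 29.3%) and 17 (44.7%, against 30.9%) were at or below its reciprocal.

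Other genes of the same processes were taken from 6 lists, for the PAF1 complex, cleavage and polyadenylation, further general factors, further Mediator kinase genes, polymerase assembly and C-terminal domain phosphatases, and the super elongation complex. Of 75 such genes 39 had enough counts. At least 1.5-fold enrichment was reached by 12 of the 39 in shCTL (22.5% of all genes) and 14 in shA5 (24.3% of all genes), and 11 and 13 lay at or below its reciprocal (30.3 and 31.7% of all genes). A gain of enrichment of 1.5-fold was found for 2 (5.38% of all genes), a loss for 0 (5.09%), and an input change of that size for 0 in either direction.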

How the data were processed

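Libraries of input RNA and m6A-IP from irradiated HEK293T cells with shCTL or shA5 were used as 4 groups of 1 library. The values deposited by the authors are raw counts of each Ensembl transcript found in a library. Per the submitters' processing notes the tools were bcl2fastq 2.0, fastp 0.23.2, HISAT2 and SAMtools 1.9 on hg38, with MACS2 for peaks, and the methods name StringTie for quantification. The counting program, its annotation and its rule for shared reads are not given in the sources used here. Of the 28413 transcripts 98.1% are in Gencode v44, and 0 gene names were blank.

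Counts were summed per gene symbol and divided by library totals (for shCTL 2237819 counts in input and 3944402 in m6A-IP, for shA5 1311390 and 3148119). A count of 3 is worth 1.34, 0.761, 2.29 and 0.953 CPM in that order, so the shA5 input limits the precision. Enrichment is log2 of IP over input CPM with a pseudocount of 0.5 CPM, which pulls low genes toward 0, for genes that reached a mean of 50 counts. Ratios of 1.5-fold were counted. Single ratios have exact 95% intervals (Clopper-Pearson, or the conditional odds ratio for changes of enrichment). With 1 library per group there was no test, and edgeR 4.0.16 and DESeq2 1.42.0 (R 4.3.3) served only for scaling factors. The work was done in Python 3.11.15 (pandas 2.3.3, scipy 1.17.1, numpy 2.4.6, matplotlib 3.10.9, statsmodels 0.14.6), and the steps were tested on simulated data.

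Genes are named if they are the highest or lowest of their complex over both populations, among the 5 largest changes either way, or past 1.5-fold with an interval that leaves out 0. The gene lists and groups were chosen with earlier results of these data known. Alternatives were TMM and DESeq2 scaling, pseudocounts of 0.1 and 2 CPM, minimum means of 10 and 200 counts or none, a 2-fold threshold, the main transcript alone, removal of a GC trend and centring on the median of all genes. The alternatives by transcript sharing and by exon overlap were chosen after seeing the data. Genes named outside this rule (such as the rest of those high in both populations, partner subunits, TBP and GAPDH) were chosen after their values were seen. Peaks and coverage were not analysed here.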

Additional observations from a re-analysis of the deposited data

Results flagged for a closer look

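MED9, a gene of the Mediator middle module, had a log2 m6A enrichment of -0.11 (95% counting interval -0.39 to 0.17) in shCTL and 0.56 (0.19 to 0.96) in shA5, so that its m6A-IP share lay below the input in 1 population and above it in the other. The difference of 0.67 (interval 0.20 to 1.16) covers counting error only, and with 1 library per group it was not tested against replicates. It was 0.64 after removal of the GC trend. The shA5 input held 74 counts of MED9.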

How the results depend on the processing

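No paired analysis was possible because there is 1 library in each group, so no replicate could be left out either. Of 278 recomputed values 235 stayed within a tolerance and 43 did not. The tolerance was 1.5 times for a number of genes, the 95% order-statistic interval over genes for a median and the 95% counting interval for a single gene, which is wide, so values within it can still take the other sign or cross 1.5-fold. Medians took the other sign under other minimum counts, as given below. Of the single genes, the change of ALKBH5 enrichment went from 0.016 to -0.022 after removal of the GC trend. With the main transcript alone GTF3C1 enrichment change (0.57) fell under 1.5-fold, while SUPT6H enrichment change (0.59) and TAF1C input change (-0.75) passed it, as did MED10 input change (0.586) with a pseudocount of 0.1 CPM. All 24 counts and medians under TMM or DESeq2 scaling stayed within the tolerance. Causes of the moves below were not tested, beyond the fewer or more genes that each filter leaves. In the settings that follow, high and low mean at or past 1.5-fold enrichment or its reciprocal, and up and down mean shA5 against shCTL.

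Shares of all genes under the same setting stand in brackets. With a minimum mean of 10 counts (109 genes) 54 genes, or 49.5%, were low in shCTL [35.8%] and 57, or 52.3%, in shA5 [37.8%], 15 had enrichment up (13.8% [12.6%]) and 11 down (10.1% [13.0%]), 12 had input down (11.0% [12.5%]) and 5 up (4.59% [9.32%]). The median enrichment was then -0.56 in shCTL and -0.62 in shA5 and the median change of enrichment 0.05. With a minimum of 200 counts (35 genes) 10 were low in shCTL (28.6% [21.7%]) and 12 in shA5 (34.3% [23.7%]), 1 had enrichment down (2.86% [1.08%]), 0 had it up [1.65%], and 0 had input up [1.08%] or down [3.33%]. The median enrichment was then 0.03 in shCTL and 0.12 in shA5, and the median input change 0.0078. Without a filter (143 genes) 68 were low in shCTL (47.6% [36.7%]) and 71 in shA5 (49.7% [37.5%]), 26 were high in shA5 (18.2% [24.5%]), 22 had enrichment down (15.4% [21.4%]) and 28 up (19.6% [22.7%]), 23 had input down (16.1% [19.9%]) and 16 up (11.2% [15.3%]). The median enrichment was then -0.51 in shCTL and in shA5 and the median change of enrichment 0.06.

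At 2-fold 3 were high (4.23% [10.1%]) and 10 low (14.1% [16.9%]) in shCTL, 5 high (7.04% [12%]) and 16 low (22.5% [18.4%]) in shA5, and 0 changed in enrichment (up [0.846%], down [0.771%]) or input (up [0.470%], down [1.15%]). With the main transcript alone 2 had input down (2.99% [7.04%]), GTF3C1 and TAF1C. In the 38 genes with at least 50% of counted bases outside other coding transcripts 4 were high in each population (10.5% [25.6% in shCTL, 27.2% in shA5]), 15 low in shCTL (39.5% [29.3%]) and 17 in shA5 (44.7% [30.9%]), 3 had enrichment down (7.89% [4.21%]), 1 up (2.63% [4.31%]), and 0 input down [6.17%]. In the 38 genes that overlap no exon of another gene 6 were high (15.8% [23.5%]) and 14 low (36.8% [30.3%]) in shCTL, 8 high (21.1% [25.0%]) and 15 low (39.5% [31.7%]) in shA5, 4 had enrichment down (10.5% [5.46%]) and 1 input up (2.63% [3.49%]).

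The shA5 input is the shallowest library, and 12 of the 30 Mediator genes and 17 of the 30 polymerase subunits had enough counts for a ratio.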
